A study of Homo sapiens with 42 samples.

Results

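The loci of the 3 D-type cyclin genes (CCND1, CCND2 and CCND3) and of their partner kinase genes CDK4 and CDK6 were examined in ATAC-seq peak lists of 42 samples. A peak belonged to a locus when its summit lay inside the gene or within 200 kb of it, so the 5 loci were 5 of 19970 protein-coding genes and held 352 of the 315054 regions of 500 bp with a strict peak in any sample. They represent 7 established human cancer lines, all of genotype WT: 92-1 (uveal melanoma), 22RV1 (prostate), RD (rhabdomyosarcoma), A375 (melanoma), DU4475 (breast), HCT116 (colorectal) and MV411 (acute myeloid leukaemia). Each line had 3 DMSO samples and 3 samples given FHT-1015 for 4 h. FHT-1015 blocks the ATPase subunits SMARCA4 and SMARCA2, the motors of BAF chromatin remodelling complexes. The labels call the samples of a group biological replicates and do not say whether they were separate cultures, so p-values measure the spread between these samples.

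D-type cyclins are the regulatory subunits that switch on the kinases CDK4 and CDK6 in the G1 phase of the cell cycle. The active pairs phosphorylate the RB protein, which releases E2F factors and lets the cell enter S phase. The cyclins are made in response to growth signals and differ between tissues in which one predominates. In ATAC-seq a transposase inserts adapters into open DNA, so a peak marks an accessible element, and distal peaks often lie at enhancers.

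The deposited lists held 114291 to 431956 peaks per sample, most of them weak. Strict peaks were those with a −log10 q of at least 5, and there were 1412 to 121774 of them per sample. FHT-1015 replicates 2 and 3 of 92-1 stood apart, with 2037 and 1412 strict peaks, so results that rest on them are also given without 92-1. In the FHT-1015 samples the mean number of strict peaks was 22.4% of that in DMSO in 92-1, 46.5% in RD, 47.2% in MV411, 59.3% in 22RV1, 74.0% in DU4475, 83.2% in A375 and 94.6% in HCT116. Because whole lists shortened, each change at a locus is set beside the same measure over all genes, and beside the 20000 strongest peaks of each list. Of the 5 lineage genes listed for each line, a strict peak stood near the gene in all 3 DMSO samples for 5 in DU4475 and MV411, 4 in 22RV1 and RD, 3 in A375 and HCT116, and 2 in 92-1. In 92-1, MLANA, SOX10 and TYR lacked such a peak in at least 1 DMSO sample. In MV411, peaks also stood at all 5 skeletal muscle and all 5 intestinal genes, so the marker lists do not separate the lines.

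The starts of the 5 genes differed in how often they were open. A strict summit lay within 1 kb of the CDK4 start in 20 of 21 DMSO samples and 17 of 21 FHT-1015 samples. For CCND3 the counts were 19 and 16 at the upper end of the gene, where the strict region lay 0.7 kb beyond it inside the neighbour TAF8, so the 2 genes cannot be told apart there. An internal CCND3 start listed by RefSeq was open in 21 DMSO and 18 FHT-1015 samples, and the strict region there was centred 108.1 kb along the gene. The CDK6 gene start had a strict summit in 10 and 11 samples, and a RefSeq start just inside the gene in 18 and 15. CCND1 had one at its start in 4 DMSO and 5 FHT-1015 samples, and CCND2 in 2 and 1. Among all deposited peaks the CCND1 start had a summit in 15 and 13 samples and the CCND2 start in 12 and 10, so many of their start peaks lay below the strict threshold. A strict region 2.0 kb upstream of the CCND1 start, chosen after its values were seen, was called in 16 DMSO and 11 FHT-1015 samples. Such a region counts as distal, since that class begins 1 kb from a gene end.

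**Figure D1:**
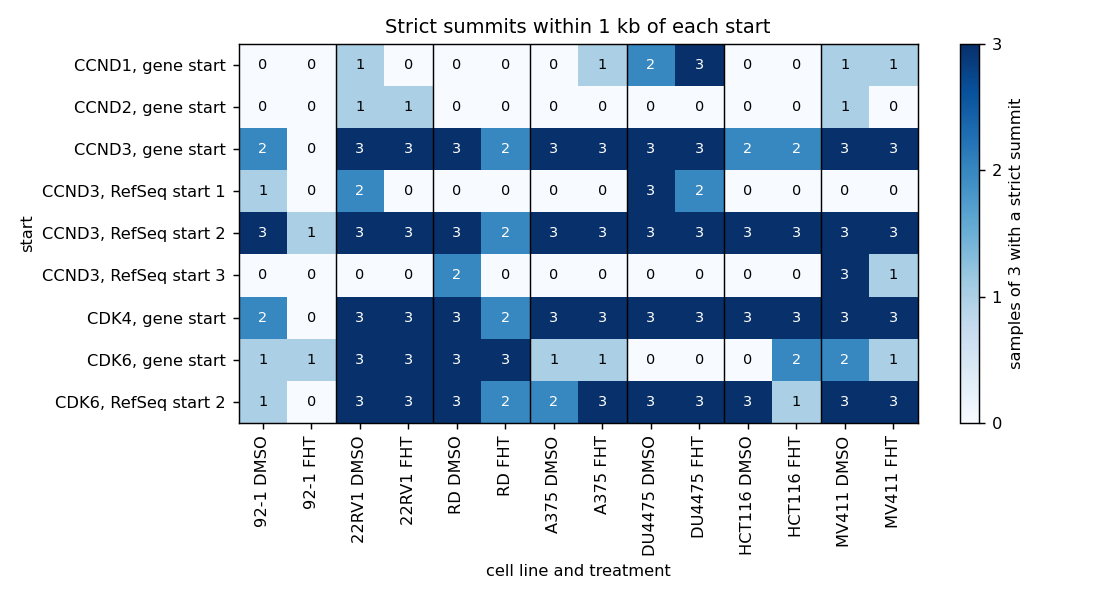
Number of samples, of 3, with a strict summit within 1 kb of each start (rows) in each line and treatment (columns); RefSeq starts are numbered from the upper end of the gene. The CDK4 start and the CCND3 start numbered 2 were filled in nearly every line, whereas the CCND1 and CCND2 starts had at most 5 samples of 21 per treatment.

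Promoter sequence from RefSeq (GRCh38.p14) covers 250 bases before to 50 after a start and was given for CCND3, CDK4 and CDK6. All 3 genes lie on the minus strand. The 4 promoters below are those of the starts that were open most often and of the CDK6 gene start. Capitals mark matches, on either strand, of 6 motifs: the GC box GGGCGG, the CCAAT box CCAAT, the E-box CACGTG, the cAMP response element TGACGTCA, the AP-1 motif TGANTCA and the TATA box TATAAA; matches were allowed to overlap.
CCND3, chr6:41941759-41942058, minus strand: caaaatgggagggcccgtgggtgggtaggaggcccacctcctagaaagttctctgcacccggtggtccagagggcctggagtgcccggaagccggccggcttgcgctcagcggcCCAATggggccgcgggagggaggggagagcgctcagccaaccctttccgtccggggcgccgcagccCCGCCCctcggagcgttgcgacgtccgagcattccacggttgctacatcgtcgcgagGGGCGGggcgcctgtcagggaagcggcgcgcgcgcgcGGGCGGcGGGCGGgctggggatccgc
CDK4, chr12:57752261-57752560, minus strand: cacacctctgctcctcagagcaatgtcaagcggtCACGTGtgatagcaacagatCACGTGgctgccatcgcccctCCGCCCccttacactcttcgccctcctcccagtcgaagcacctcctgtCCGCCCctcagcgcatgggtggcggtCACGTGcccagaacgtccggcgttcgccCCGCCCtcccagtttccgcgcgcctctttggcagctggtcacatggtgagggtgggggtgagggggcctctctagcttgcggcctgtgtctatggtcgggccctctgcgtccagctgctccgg
CDK6 gene start, chr7:92836524-92836823, minus strand: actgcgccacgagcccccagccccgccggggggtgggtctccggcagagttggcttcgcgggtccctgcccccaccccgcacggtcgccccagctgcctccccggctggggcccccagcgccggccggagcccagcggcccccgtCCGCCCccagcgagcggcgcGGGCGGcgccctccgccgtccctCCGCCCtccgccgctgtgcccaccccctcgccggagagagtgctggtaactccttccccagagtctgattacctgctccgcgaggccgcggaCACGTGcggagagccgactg
CDK6 internal start, chr7:92833910-92834209, minus strand: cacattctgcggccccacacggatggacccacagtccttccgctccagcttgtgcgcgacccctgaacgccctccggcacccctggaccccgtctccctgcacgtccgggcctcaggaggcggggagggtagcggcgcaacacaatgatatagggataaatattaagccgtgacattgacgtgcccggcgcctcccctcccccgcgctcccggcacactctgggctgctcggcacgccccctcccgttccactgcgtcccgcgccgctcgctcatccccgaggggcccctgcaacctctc

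The CDK4 promoter held 3 E-boxes and 3 GC boxes, and an E-box occurred in 8.34% of 22155 promoters of protein-coding genes in the table. The CCND3 promoter held 4 GC boxes and 1 CCAAT box, which occurred in 56.3% and 34.6% of promoters. The CDK6 gene start held 3 GC boxes and 1 E-box, and the internal CDK6 start held none of the 6 motifs. The cAMP response element (2.26% of promoters), the AP-1 motif (6.16%) and the TATA box (9.47%) were not among the letters of these 4 windows. A strict peak lay over the CCND3 promoter in 21 DMSO and 18 FHT-1015 samples, over that of CDK4 in 20 and 17, over the CDK6 gene start in 10 and 11 and over the internal CDK6 start in 18 and 14.

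Peaks at the genes' own ends did not change past the threshold at any of the 5 loci over the 7 lines. The mean change in log2(peaks + 1) was -0.03 at CCND1, -0.05 at CCND2, -0.09 at CCND3, -0.23 at CDK4 and 0.05 at CDK6. Adjusted p-values from the exact stratified permutation test, which exchanges treatment labels within lines, were 0.33 for CDK4, 0.82 for CCND3 and 1 for the others. Over all genes tested, 1.09% were called lower at their own ends and 0% higher, with a median change of -0.13. Among the 20000 strongest peaks of each list the exact test called none of the own ends either, where 0.241% of genes were called lower and 4.79% higher. The largest change there was at CCND3, 0.44 (adjusted p = 0.16, exact test). Without 92-1 it was 0.57 (adjusted p = 0.087, exact test), which limma with line as a term, added after seeing the data, called higher (adjusted p = 0.038), where it called 11.6% of genes higher and 0.606% lower. Within A375 limma called the CCND3 ends higher among the strongest peaks (1.39, adjusted p = 0.027), where 3.67% of genes were called higher and 0.661% lower. The groups also did not overlap at the CCND3 ends in MV411, where the mean rose from 0 to 1.33 (1.19). At the CDK4 ends in 92-1 the groups separated downward, from a mean of 1 to 0 (-1). The sparse FHT-1015 lists of that line held 2037 and 1412 strict peaks, and their part in this fall was not tested. The share of all genes whose own ends separated was not counted. By limma, among the strongest peaks, 12% of genes were called higher and 0.871% lower at their own ends in MV411. In 92-1 the shares were 0.457% higher and 0.795% lower.

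Distal peaks, those more than 1 kb from every gene end, were fewer with FHT-1015 at all 5 loci over the 7 lines. The mean log2 change was -1.03 at CDK6 (SD over lines 0.82, n = 7), -0.92 at CDK4 (SD 0.56, n = 7), -0.92 at CCND3 (SD 0.68, n = 7), -0.75 at CCND1 (SD 0.99, n = 7) and -0.65 at CCND2 (SD 1.02, n = 7). In the exact stratified permutation test, two-sided and adjusted over 19908 genes, adjusted p was 9.2e-05 for CDK6, 0.0013 for CDK4, 0.0010 for CCND3, 0.0057 for CCND1 and 0.017 for CCND2. CDK4 was lower in 7 of 7 lines, CCND1, CCND3 and CDK6 in 6, and CCND2 in 4. The background was 79.3% of genes called lower and 0% called higher, with a median change of -0.69, so 5 of 5 loci called lower is close to what genes at large showed. CDK6 had a lower change than all but 17.2% of genes, and CCND2 sat near the middle, with 55.2% of genes below it. The place of CDK6 depended on 92-1. Without that line its change was -0.78, with 29.55% of genes below it, beside -0.82 at CDK4 and -0.81 at CCND3. Without 92-1, where 70.6% of genes were called lower and 0.00502% higher, the change at CCND1 was -0.46 with an adjusted p of 0.068 in the exact test. Without MV411, where 59.8% of genes were called lower and 0% higher, the change at CCND2 was -0.46 with an adjusted p of 0.13 in the exact test. With a window of 100 kb, where 66.6% of genes were called lower, CCND1 (-0.18, adjusted p = 0.45 in the exact test) and CCND2 (-0.33, 0.16) were not called.

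Among the 20000 strongest peaks of each list, which removes the difference in list length, none of the 5 loci was called. The mean log2 change was -0.21 at CDK6, -0.18 at CCND1, -0.16 at CDK4, -0.08 at CCND2 and -0.06 at CCND3, with adjusted p-values of 0.41 to 0.83 in the exact stratified permutation test. Unadjusted, 0 of the 5 had a p under 0.05, the lowest being 0.233 for CDK6. On this measure 10.2% of genes were called lower and 11% higher, and the median change was 0. After pileups were thinned to a common background, which leaves out 92-1, 59.5% of genes were called lower, and so were all loci but CCND3. With the threshold relaxed to q below 0.05, 9.22% of genes and 0 of the 5 loci were called lower, and with all deposited peaks 0% and 0. Without 92-1, RD and MV411, 13.5% of genes and 0 of the 5 loci were, and in the 3 lines without the word small in their peak names 13.2% of genes and 0 of the 5.

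**Figure D2:**
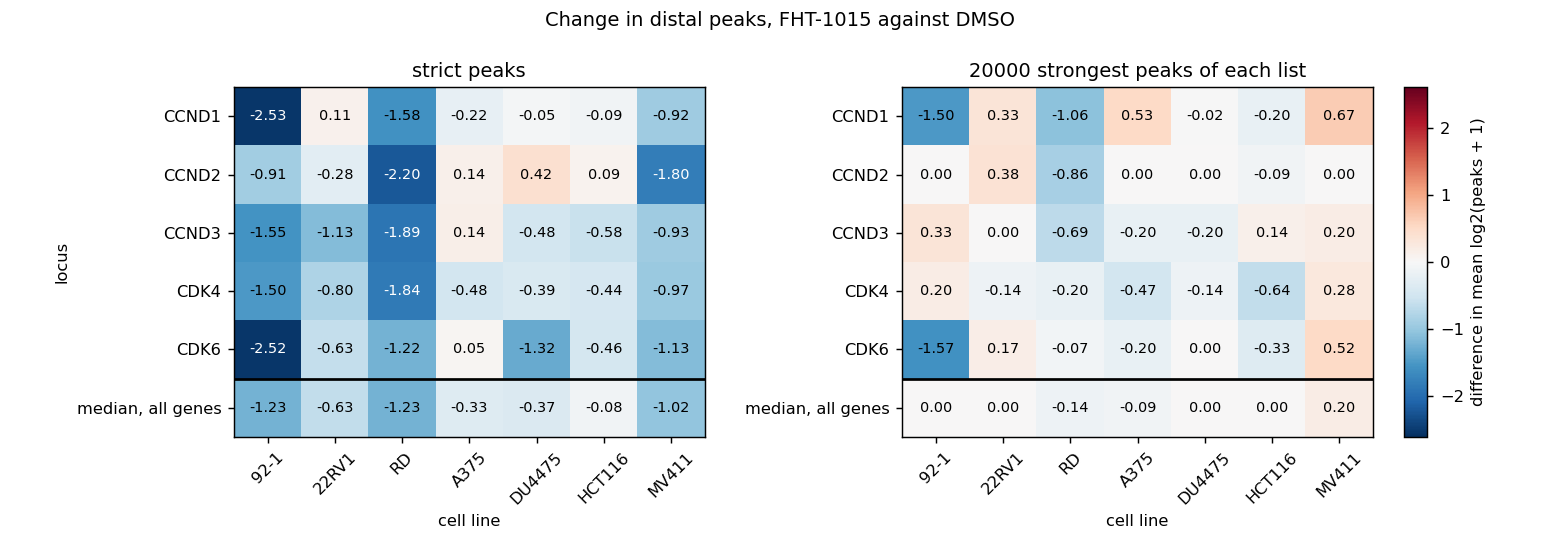
Difference in mean log2(distal peaks + 1) between FHT-1015 and DMSO (colour and printed value, 3 against 3 samples) for each locus and line, from strict peaks (left) and from the 20000 strongest peaks of each list (right). The bottom row is the median over all genes with such a peak in the line: in strict peaks it is -1.23 in 92-1 and RD and -1.02 in MV411, and among the strongest peaks it lies between -0.14 and 0.20.

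Within single lines, 11 of 35 pairs of a locus and a line were called lower and 0 higher by limma, fitted over all genes of the line, against 25.5% lower and 0.00961% higher over all gene and line pairs. The 11 were all 5 loci in MV411, 3 in RD and 3 in 22RV1. The background of genes called lower was 89.2% in MV411, 51.5% in RD, 37.4% in 22RV1, 0.213% in 92-1 and 0% in A375, DU4475 and HCT116, and that of genes called higher was at most 0.0604%, in 22RV1 (0.00503% in MV411). In 16 of 35 pairs every FHT-1015 sample was below every DMSO sample, against 32% of gene and line pairs over all genes; in 0 pairs were they above, against 0.27%. Among the 20000 strongest peaks the groups separated downward in 1 pair (CCND1 in 92-1, 2, 4 and 5 against 0, 1 and 1) and upward in 1 (CDK6 in MV411, 4, 3 and 4 against 6, 5 and 6), where 7.29% and 5.81% of all pairs did. By limma 0 of the 32 pairs that could be tested were called there (3.08% lower and 2.35% higher over all pairs), 5 of 30 lower after thinning (17.2% and 0.0477%), 6 lower with all deposited peaks (11.7% and 0.0208%), and 7 lower and 1 higher with q below 0.05 (15.9% and 3.06%). The 5 after thinning to a common background were 2 in MV411, 2 in 22RV1 and 1 in RD. In these lines 32.8%, 39.9% and 30.1% of genes were then called lower. An exact permutation test of 3 against 3 samples cannot go below 0.1, and after adjustment over the 35 pairs it called 0 (smallest adjusted p = 0.22).

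**Figure D3:**
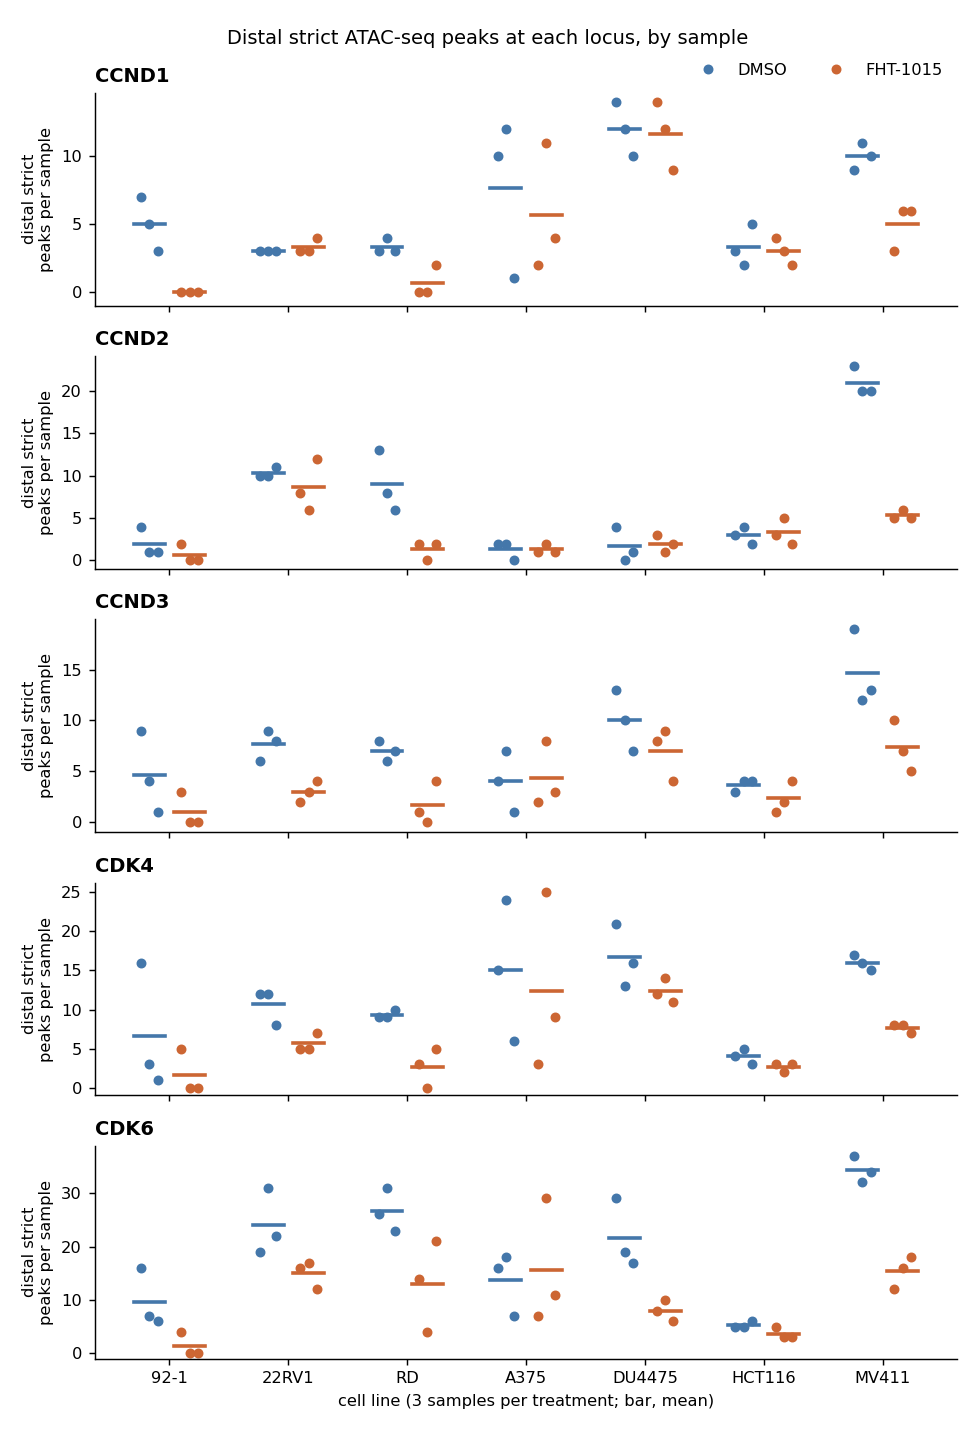
Number of distal strict peaks in every sample (points) with the mean of 3 (bars), by locus (panels), line and treatment. The 2 treatments do not overlap at all 5 loci in MV411 and RD, and at CDK6 they also separate in 92-1, 22RV1 and DU4475.

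CCND1 (chr11:69641156-69654474), the cyclin D gene most often amplified in solid tumours, had its highest distal counts in DU4475. There the DMSO samples had 14, 12 and 10 distal strict peaks and the FHT-1015 samples 14, 12 and 9, so the groups overlapped fully. In MV411 the counts were 9, 11 and 10 in DMSO and 3, 6 and 6 with FHT-1015, a change of -0.92 ± 0.25 (SE, n = 3 per group) that passed limma's test (adjusted p = 0.0080). In RD they were 3, 4 and 3 against 0, 0 and 2 (-1.58 ± 0.48, SE), also called by limma (adjusted p = 0.042). RD therefore kept almost no strict distal peak at this locus, although the call was lost when any one of 5 of the 6 samples was left out (adjusted p up to 0.14, limma). In 92-1 the counts were 7, 5 and 3 against 0, 0 and 0, a separation that did not pass limma's test (adjusted p = 0.24) and that rests on the sparse lists named above. The 3 lines 22RV1 (3, 3 and 3 against 3, 3 and 4), HCT116 (3, 2 and 5 against 4, 3 and 2) and A375 (10, 12 and 1 against 2, 11 and 4) showed no separation.

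CCND2 (chr12:4273762-4305353), a cyclin D gene expressed in many blood cells, had its highest count in MV411. The DMSO samples had 23, 20 and 20 distal strict peaks and the FHT-1015 samples 5, 6 and 5. The mean fell from 21 ± 1.73 to 5.33 ± 0.58 (SD, n = 3), a log2 change of -1.80 ± 0.15 (SE) with adjusted p = 6.3e-05 in limma. Only 3.90% of genes in MV411 changed as much downward, and the call held with any one of the 6 samples left out (-1.87 to -1.73). In RD the counts were 13, 8 and 6 against 2, 0 and 2, a change of -2.21 ± 0.54 (SE) called by limma (adjusted p = 0.023). Leaving out any one of the 3 DMSO samples of RD ended that call (adjusted p up to 0.088, limma). In 22RV1 the locus had 10, 10 and 11 peaks in DMSO and 8, 6 and 12 with FHT-1015, so a line with a well-filled locus showed no separation. The other 4 lines had 5 or fewer distal strict peaks in every sample.

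CCND3 (chr6:41934933-42050035), a cyclin D gene prominent in lymphoid cells, was called lower in 3 lines. In MV411 it had 19, 12 and 13 distal strict peaks in DMSO and 10, 7 and 5 with FHT-1015 (-0.93 ± 0.26, SE; limma adjusted p = 0.0080), a call that was lost without DMSO replicate 1 (-0.74, adjusted p = 0.057). In 22RV1 the counts were 6, 9 and 8 against 2, 3 and 4 (-1.13 ± 0.29, SE; limma adjusted p = 0.018). In RD they were 8, 6 and 7 against 1, 0 and 4 (-1.89 ± 0.60, SE; limma adjusted p = 0.047). These 3 pairs did not overlap, yet the call in 22RV1 held in 2 and that in RD in 1 of the 6 fits that leave out a sample (adjusted p up to 0.085 and 0.14, limma). DU4475 (13, 10 and 7 against 8, 9 and 4) and HCT116 (3, 4 and 4 against 1, 2 and 4) overlapped. In MV411 the change was near the median of all genes, with 60.0% of genes as low or lower.

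CDK4 (chr12:57747727-57752310), one of the kinases that D-type cyclins activate, was the most evenly lowered locus, below DMSO on average in every line. In MV411 it had 17, 16 and 15 distal strict peaks in DMSO and 8, 8 and 7 with FHT-1015 (-0.97 ± 0.14, SE; limma adjusted p = 0.00028). In 22RV1 the counts were 12, 12 and 8 against 5, 5 and 7 (-0.80 ± 0.23, SE; limma adjusted p = 0.028). The call in 22RV1 held in only 1 of 6 fits with a sample left out (adjusted p up to 0.11, limma). In RD the counts 9, 9 and 10 against 3, 0 and 5 did not overlap but missed limma's threshold (-1.84 ± 0.69, SE; adjusted p = 0.070); without FHT-1015 replicate 2 they passed it (-1.07, adjusted p = 0.031), and likewise without FHT-1015 replicate 3 (-2.37, adjusted p = 0.037). In counts A375 varied most, with 15, 24 and 6 against 3, 25 and 9, where replicate 2 was the highest in both groups. On the log2 scale the SE was largest in 92-1 (-1.50 ± 1.02, against -0.476 ± 0.698 in A375).

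CDK6 (chr7:92604921-92836573), the other kinase gene and the longest of the 5, had the most distal peaks. In MV411 it had 37, 32 and 34 in DMSO and 12, 16 and 18 with FHT-1015 (-1.13 ± 0.15, SE; limma adjusted p = 0.00020), and the call held with any one of the 6 samples left out. In 22RV1 the counts were 19, 31 and 22 against 16, 17 and 12 (-0.63 ± 0.21, SE; limma adjusted p = 0.043), a change equal to the median of all genes in that line, and none of the 6 fits with a sample left out called it (adjusted p up to 0.15, limma). DU4475 had 29, 19 and 17 against 8, 10 and 6, a wide separation (-1.32 ± 0.26, SE) that missed the threshold (limma adjusted p = 0.085). No gene was called in that line, and 7.93% of genes changed as much downward. RD (26, 31 and 23 against 14, 4 and 21) and 92-1 (16, 7 and 6 against 4, 0 and 0) also separated without passing limma's test (adjusted p = 0.11 and 0.24). A375 (16, 18 and 7 against 7, 29 and 11) and HCT116 (5, 5 and 6 against 5, 3 and 3) overlapped.

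Differences between lines in the size of the change did not pass the test of the interaction between line and treatment for strict peaks at any locus. Adjusted p from limma's F test was 0.094 at CCND2, 0.096 at CCND1, 0.19 at CDK6, 0.41 at CCND3 and 0.65 at CDK4, where 1.43% of all genes passed. Without 92-1, CCND2 passed (adjusted p = 0.026, limma), where 7.44% of genes did. Among the 20000 strongest peaks CCND1 and CDK6 passed (adjusted p = 0.012 and 0.040, limma), where 24.8% of genes did, but not without 92-1 (0.089 and 0.41), where 19.5% did.

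Untreated lines differed in which loci were rich in strong distal peaks, counted among the 20000 strongest of each DMSO list so that lists had equal length. These levels are a description, and lists of equal length still differed between lines in summits per interval. With 1 summit kept per interval, strict peaks of DMSO replicate 1 went from 45201 to 23292 in RD. In 22RV1 they went from 58095 to 53138. The part this has in the levels below was not tested. CDK6 had 13, 13 and 13 in RD, above every other line. It had 7 ± 1 (SD, n = 3) in 22RV1, 6.33 ± 1.53 in A375 and 6 ± 3.61 in 92-1, which did not differ beyond their spread, then 3.67 ± 0.58 in MV411, 3.33 ± 0.58 in DU4475 and 2.67 ± 0.58 in HCT116. CCND1 had 3.67 ± 1.53 in 92-1, 3.67 ± 0.58 in DU4475 and 3.33 ± 1.53 in HCT116, then 1.67 ± 0.58 in RD and 1 in every A375 sample, and 0 in every sample of 22RV1 and MV411. CCND2 had 2.33 ± 0.58 in each of 22RV1, RD and HCT116, 1 ± 1 in 92-1, and 0 in every sample of A375, DU4475 and MV411. The 20 to 23 strict peaks of CCND2 in MV411 therefore all ranked below the 20000 strongest of their lists. CCND3 had 3.67 ± 0.58 in RD and 2 ± 1 or less on average in the others. CDK4 ranged from 4 ± 1 in A375 to 1 in every 92-1 sample.

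The genes at least 1 Mb away whose distal counts among the strongest peaks followed a member most closely over the 42 samples were found by Pearson correlation. For CCND1 they were ITGA3, PDK2 and SAMD14, each with r = 0.75; these 3 share a stretch of chromosome 17 and so share peaks. For CCND2 they were WDR27 (0.83), ST8SIA2 (0.80) and TEAD4 (0.74), the last on the same chromosome. For CCND3 they were CCDC136 (0.58), NUP214 (0.57) and SH2B2 (0.55). For CDK4 they were TRIM14 (0.72), NANS (0.70) and VPS37D (0.68), and for CDK6 LRGUK (0.77), MTIF2 (0.73) and CLHC1 (0.72). Genes named for the other members can also lie near each other and share peaks, which was not examined. The samples share lines and libraries, and 8717 to 8740 genes were compared, so these values only describe likeness.

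The 352 strict regions of the loci were 57 at CCND1, 58 at CCND2, 63 at CCND3, 69 at CDK4 and 105 at CDK6. No region of the 5 loci passed the exact stratified test adjusted over all regions, whose genome-wide calls were 4 of 315054 in the lower direction (0.00127%) and 0% in the higher. At an unadjusted p under 0.05, 8 regions of CDK6, 2 of CCND1 and 2 of CDK4 were called less often, and none of CCND2 or CCND3, against 2.82% of all regions. A region was counted as lost in a line when its 3 DMSO samples all had it and its FHT-1015 samples all lacked it. Of distal region and line pairs open in all 3 DMSO samples, 20 of 66 were lost at CDK6 (30.3%), 6 of 20 at CCND1 (30%), 7 of 23 at CCND2 (30.4%), 6 of 34 at CDK4 (17.6%) and 2 of 19 at CCND3 (10.5%). Over all distal regions 33% were lost, but this share ran from 11.4% in HCT116 to 56.3% in 92-1 and the loci had open regions in different lines. At the rate of each line, the open regions of the loci would have lost 21.5 at CDK6, 5.57 at CCND1, 8.57 at CCND2, 9.02 at CDK4 and 5.95 at CCND3. In single lines the counts were small: CDK6 lost 3 of 7 in DU4475 (42.9%), where 13.9% of all distal regions were lost, and CCND1 and CCND2 each lost 2 of 2 in RD, where 39.5% were. These lines were chosen after their values were seen, and the differences were not tested. Of gene-end pairs at the 5 loci, 5 of 155 were lost (3.23%), against 4.14% over all gene-end regions. Together the loci lost 46 of 317 pairs (14.5%), where 22.6% of all pairs were lost. These 2 shares differ in make-up, since gene-end pairs were 155 of 317 at the loci and 76952 of 213069 over all regions. Of distal pairs alone the 5 loci lost 41 of 162 (25.3%), where the rate of each line gives 31.3%. The difference was not tested.

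**Figure D4:**
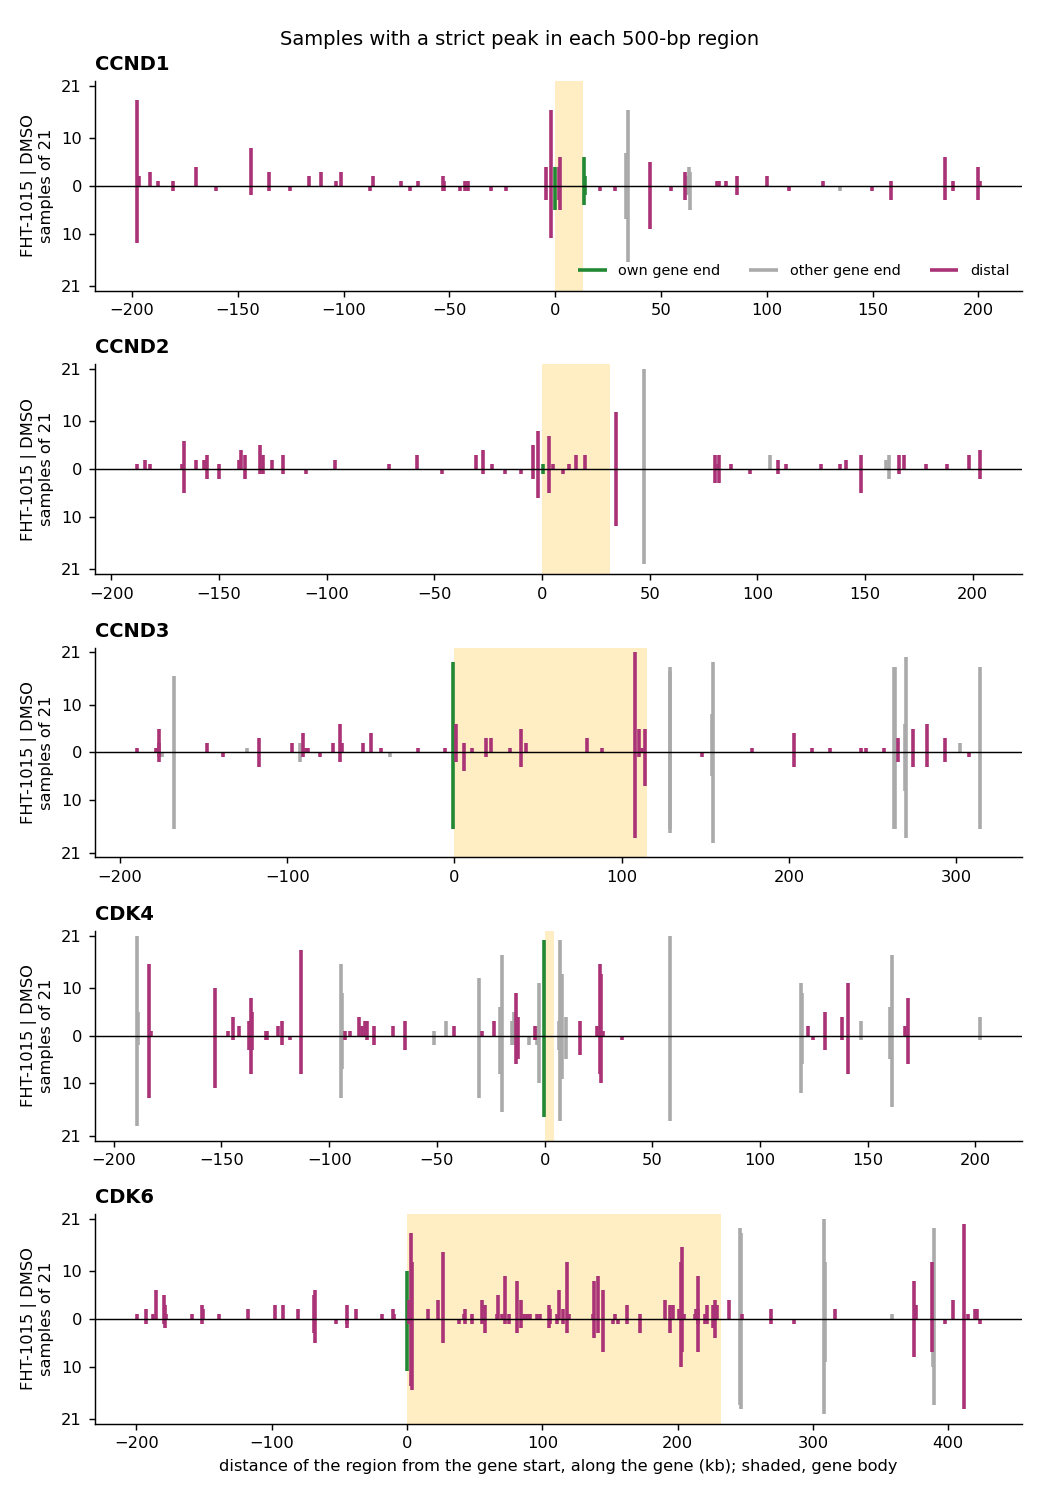
Number of samples of 21 with a strict peak in each 500-bp region, DMSO above and FHT-1015 below the line, by distance from the gene start along the gene, with the gene body shaded. Regions near gene ends were called in similar numbers of samples under both treatments. Many distal regions reach higher above the line than below it. The share of distal regions called in fewer FHT-1015 than DMSO samples was 85.1% at CCND3, 79.4% at CDK6 and 79.2% at CCND2. It was 69.8% at CDK4 and 56.2% at CCND1, against 77.2% over all distal regions.

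CDK6 held 58 of its 97 distal strict regions inside the gene, and 44 of the 58 were called in fewer FHT-1015 than DMSO samples, 6 in more and 8 in equally many. Outside the gene the counts were 33 of 39 in fewer and 5 in more, and over all distal regions 77.2% were called in fewer and 13.8% in more. The region with the smallest p lay 118.4 kb into the gene, at chr7:92717971-92718470, and was called in 12 DMSO and 3 FHT-1015 samples (unadjusted p = 0.0019, exact stratified test). It was lost in 22RV1 and in MV411. A region 203.3 kb into the gene, at chr7:92633037-92633536, was called in 15 and 7 samples (p = 0.0020, exact) and was lost in 92-1, while all 3 FHT-1015 samples of RD and of A375 kept it. A region 72.7 kb into the gene, at chr7:92763584-92764083, was called in 9 and 1 samples (p = 0.0050, exact) and lost in MV411. All 3 had an adjusted p of 0.61.

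CCND1 had its smallest p far upstream, 197.7 kb before the gene at chr11:69443172-69443671. This region was called in 18 DMSO and 12 FHT-1015 samples (unadjusted p = 0.0050, exact stratified test; adjusted p = 0.61). It was called in all 3 DMSO samples of every line but 22RV1, was lost in 92-1 and RD, and was kept by all 3 FHT-1015 samples of A375, DU4475, HCT116 and MV411. Another, 143.7 kb upstream at chr11:69497188-69497687, was called in 8 and 2 samples (p = 0.034, exact) and lost in RD. The third, at chr11:69471247-69471746, was called in 4 and 0 samples (p = 0.080, exact).

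CDK4 had a region 113.1 kb upstream, at chr12:57865195-57865694, called in 18 DMSO and 8 FHT-1015 samples (unadjusted p = 0.0018, exact stratified test; adjusted p = 0.61). HCT116 had it in all 3 DMSO samples and lost it, and all 3 FHT-1015 samples of DU4475 kept it. A region inside the neighbour AGAP2, at chr12:57726493-57726992 and near a RefSeq start, was called in 15 and 8 samples (p = 0.0050, exact) and lost in RD. The third, inside CTDSP2 at chr12:57837999-57838498, was called in 4 and 0 samples (p = 0.080, exact).

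CCND2 and CCND3 had no region with an unadjusted p under 0.05. At CCND2 the 3 smallest were chr12:4133902-4134401 (4 DMSO and 0 FHT-1015 samples, exact p = 0.050), chr12:4142649-4143148 (5 and 1, 0.080) and chr12:4215334-4215833 (3 and 0, 0.10). A strict region 34.2 kb along CCND2, beyond the far end of the gene at chr12:4307762-4308261 and chosen after its values were seen, was called in 12 samples of each treatment. At CCND3 the 3 smallest were chr6:41939387-41939886 (5 and 1, exact p = 0.080) and chr6:42048649-42049148 (6 and 2, 0.10), both near RefSeq starts inside the gene, and chr6:42099665-42100164 (4 and 0, 0.10).

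Other genes of the G1/S pathway were mostly called lower too, as were most genes. Of 22 listed genes, 20 were called lower and 0 higher in distal strict peaks over the lines by the exact stratified permutation test, where 79.3% of all genes were called lower and 0% higher. Their median log2 change was -0.65, against -0.69 over all genes. The largest changes were at E2F3 (-1.09) and E2F5 (-1.0), which encode E2F factors, and at TFDP2 (-0.94), an E2F partner. Next came the cyclin genes CCNE2 (-0.85) and CCNA2 (-0.84), and RB1 (-0.81), which encodes the RB protein. The exceptions were CDKN1B (adjusted p = 0.051, exact test) and E2F2 (0.053). Of the 22, 0 were called lower and 2 higher among the 20000 strongest peaks, where 10.2% and 11% of all genes were.

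**Figure D5:**
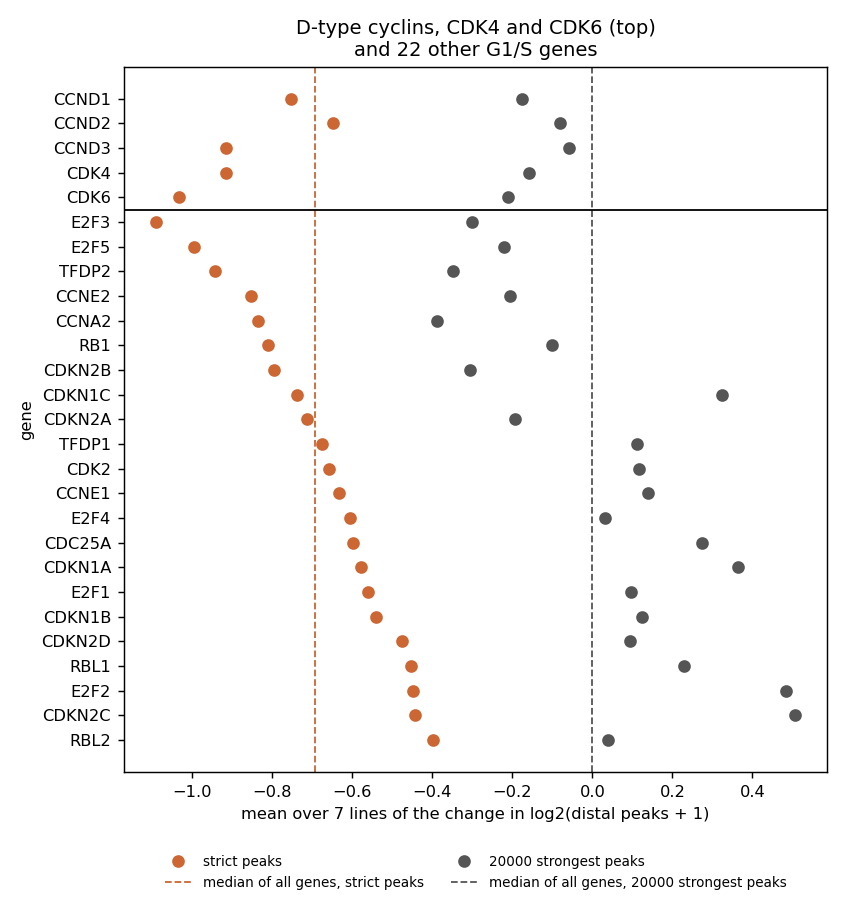
Mean over 7 lines of the change in log2(distal peaks + 1) for the 5 members (top) and 22 other G1/S genes, from strict peaks (orange) and from the 20000 strongest peaks (grey); dashed lines mark the median over all genes. In strict peaks every gene lies below 0, between -1.09 and -0.40, around the median of -0.69, and among the strongest peaks the genes lie on both sides of 0.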

How the data were processed

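The submitters' processing notes name Bowtie2, Picard, MACS2, limma and HOMER and the build hg38, with no versions. The deposited lists, 1 per sample, give for each peak a fold enrichment (a ratio) and p and q on the −log10 scale, all made by the authors; these values are the authors' and only filtered or ranked peaks within a list. Strict peaks, −log10 q of at least 5, were counted within 200 kb of each gene of RefSeq GRCh38.p14. Genes with a peak in at least 3 samples were tested on log2(peaks + 1), over lines by exact stratified permutation and within lines and for the interaction by limma 3.58.1, which shares the spread over genes, with Benjamini-Hochberg adjustment at 0.05. Genes at 0 in all samples of a line were left out there. Python 3.11.15 and R 4.3.3 were used, and the tests were tested on simulated data. Regions were 500-bp windows around strict summits, called in a sample by an overlap of at least 100 bp. A shared background recovered from fold and p, 0.0341 to 2.79 reads, stands in for depth; deeper lists give smaller p at the same enrichment. No reads were given, so no counts were tested. Named genes were the members, the pathway genes called with the largest changes (at most 6), the 3 genes most like each member and the 3 regions with the smallest p per locus. The members and lists were chosen with earlier results of these data known.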

Additional observations from a re-analysis of the deposited data

Results flagged for a closer look

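A difference between lines in the effect of FHT-1015 passed limma's F test of the interaction in 3 alternative analyses of distal peaks, none of them the analysis of strict peaks over all lines. At CCND2 it passed for strict peaks without 92-1 (adjusted p = 0.0258): the changes were -2.21 in RD and -1.80 in MV411, against -0.28 in 22RV1, 0.09 in HCT116, 0.14 in A375 and 0.42 in DU4475. Among the 20000 strongest peaks it passed at CCND1 (adjusted p = 0.0116), with -1.50 in 92-1 and -1.06 in RD against 0.53 in A375 and 0.67 in MV411. It passed there at CDK6 too (adjusted p = 0.0397), with -1.57 in 92-1 against 0.52 in MV411. Without 92-1, the adjusted p among the strongest peaks was 0.089 at CCND1 and 0.41 at CDK6. In 92-1, 2 of the 3 FHT-1015 lists held 2037 and 1412 strict peaks, so most of their 20000 strongest peaks were weak; the part this has in the CCND1 and CDK6 results was not tested.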

How the results depend on the processing

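The calls of lower distal counts over the lines were made with strict peaks and not with longer lists or lists of equal length. With all deposited peaks the changes at CCND1, CCND2, CCND3, CDK4 and CDK6 were -0.029, -0.20, -0.072, -0.22 and -0.22, with q below 0.05 they were -0.062, -0.24, -0.15, -0.25 and -0.30, and among the 20000 strongest peaks -0.18, -0.081, -0.059, -0.16 and -0.21, none called. Genes called lower over the genome numbered 15795 with strict peaks, 0 with all deposited peaks, 1839 with q below 0.05, 2031 among the strongest (2182 higher there) and 11845 after thinning pileups to a common background, which leaves out 92-1. After thinning, CCND3 lost its call (-0.47) and the other 4 kept theirs; with a 100-kb window CCND1 (-0.18) and CCND2 (-0.33) lost theirs, as did CCND1 without 92-1 (-0.46) and CCND2 without MV411 (-0.46). Genes called lower were 66.6% with that window, 70.6% without 92-1 and 59.8% without MV411. Among settings chosen after seeing the data, the strongest peaks without 92-1 gave 0.043 at CCND1 and 0.016 at CDK6, both turned in sign, and -0.094 at CCND2, -0.12 at CCND3 and -0.22 at CDK4. Without 92-1, RD and MV411 the changes were -0.062, 0.093 (turned), -0.51, -0.53 and -0.59 in the order above, none called. In the 3 lines without the word small in their peak names they were -0.62, -0.55, -0.74, -0.90 and -0.83, none called, where 13.2% of genes were. The cause of these differences was not tested. Leaving out each of the 42 samples gave -0.88 to -0.68 at CCND1, -0.73 to -0.56 at CCND2, -1.01 to -0.84 at CCND3, -1.04 to -0.79 at CDK4 and -1.14 to -0.95 at CDK6, all called. With all 42 samples 79.3% of genes were called lower. Another pseudocount, no filter, 1 summit per interval, a gene-end distance of 2 kb, RefSeq starts kept out of the distal class, limma and the 4 lines with small in their names kept the 5 calls. The shares of all genes called lower in the first 5 of these settings were 76.7%, 79.3%, 79.9%, 78.4% and 79.2%. By limma 15785 of 19908 genes were called lower, and in the 4 lines 64.5% were. Of own-end changes over the lines, limma called that at CCND3 among the strongest peaks without 92-1 (0.57), and no other alternative called one (CCND2 could not be fitted among the strongest peaks, where it had too few).

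The replicate numbers did not pair samples in every line. Same-numbered deviations correlated above 0.1 in 4 of 21 pairs, and 7 of 21 samples correlated best with their own number. The 4 pairs were in 92-1 (0.137 and 0.147) and A375 (0.389 and 0.157). In 92-1 the strict peaks also ranked by number in both groups (66350, 25397 and 14266 in DMSO, 20254, 2037 and 1412 with FHT-1015). Whether the numbers mark pairs in these lines was not tested. With the replicate block the 5 distal calls stood (adjusted p 0.016 at CCND2, exact test) where 83.2% of genes were called lower. Within lines 11 pairs were called, as without it, but they were 5 in MV411, 4 in 92-1, 2 in 22RV1 and 0 in RD. Over all genes the share called lower went from 0.213% to 41.2% in 92-1 and from 51.5% to 21.3% in RD. With the block it was 87.6% in MV411, 32.6% in 22RV1 and 26.5% over all gene and line pairs. Pairs called lower, 11 in the main analysis, were 6 with all deposited peaks, 7 with q below 0.05 (with 1 called higher), 0 among the strongest and 5 after thinning, and 8 to 13 with a sample left out. With another pseudocount they were 5 in MV411, 3 in 22RV1 and 1 in RD, where 24.6% of all pairs were called lower. With 1 summit per interval they were 5, 2 and 1, where 24.3% were. The exact permutation test called 0, which its smallest p of 0.1 fixed in advance. In 22RV1 the change turned to 0.21 at CCND3, 0.30 at CDK4 and 0.16 at CDK6 with all deposited peaks, to 0.19, 0.37 and 0.17 with q below 0.05, and at CDK6 to 0.17 among the strongest. In MV411 it turned among the strongest to 0.67 at CCND1, 0.20 at CCND3, 0.28 at CDK4 and 0.52 at CDK6. The F statistic of the interaction rose to 5.32 at CCND2 without 92-1, and to 4.56 at CCND1 and 3.36 at CDK6 among the strongest peaks. Gained region and line pairs of the 5 loci, 2 in the main analysis, were 16 with all deposited peaks. Depth limits the sparse lists: a locus at 0 in 92-1 with FHT-1015 says only that no peak reached the threshold.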

Other observations

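Among the 20000 strongest peaks, 2 of the 22 listed G1/S genes were called higher in distal peaks over the lines by the exact stratified permutation test, a share near the 11% of all genes. CDKN2C, an inhibitor of CDK4 and CDK6, changed by 0.51 (adjusted p = 0.0058) and was lower in 0 of 7 lines. CDKN1A, the p53-induced inhibitor of cyclin-dependent kinases, changed by 0.36 (adjusted p = 0.024) and was lower in 0 of 7 lines. In strict peaks both loci were called lower (-0.44 and -0.58). Of the inhibitors of CDK4 and CDK6, CDKN2B (-0.30) and CDKN2A (-0.19) had lower values in 6 of 7 lines among the strongest peaks, and neither was called (adjusted p = 0.079 and 0.35, exact test). The windows of CDKN2A and CDKN2B can hold the same peaks, which was not examined, so they may not be separate observations.

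At the CCND3 locus, peaks at the ends of its neighbours moved up among the 20000 strongest of their lists, with every FHT-1015 sample above every DMSO sample in 4 of 7 lines. Of all genes 5.27% had such a separation in 4 or more lines, and over all gene and line pairs 14.5% separated upward and 1.3% downward. The sums over 21 samples were 72 in DMSO and 126 with FHT-1015, while the distal sums were 37 and 35. In strict peaks the sums at those ends were 182 and 166. This was chosen after its values were seen and was not tested.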
